A study of Mus musculus with 23 samples.

Results

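The 4 myogenic regulatory factors of vertebrate skeletal muscle, Myod1, Myf5, Myf6 (also called Mrf4) and Myog (myogenin), were followed through differentiation of C2C12 cells, an immortalised mouse myoblast line that fuses into myotubes when serum is lowered. The members were taken as the gene rows carrying these 4 symbols, out of 32793 rows in each of the deposited tables of estimated counts and TPM (an expression level scaled for transcript length and library depth). All 4 passed the filter on low counts, Myf6 only through the 3 libraries in which it reached 10 counts. The 8 groups combined 2 genotypes, control (here WT) and Runx1KO (here KO), with 4 times in 2 media. Day 0 was growth medium with 20% fetal bovine serum, and days 1, 3 and 6 were spent in differentiation medium with 2% horse serum. Titles give the last time as day 6, whereas the series text gives 5 days. Each group held 3 libraries, except WT day 0 with 2 analysed here, and all 23 were poly(A)-selected RNA from the same cell line. How Runx1 was disrupted, whether the KO cells were 1 clone, and whether replicates were separate cultures are not given in the sources used here, so p-values measure only the spread between these libraries.

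The myogenic regulatory factors are basic helix-loop-helix transcription factors. They dimerise with E proteins and bind the short DNA element called the E-box in the regulatory regions of muscle genes. Myf5 and Myod1 set the myogenic fate and are both present in proliferating myoblasts, Myog is switched on at the entry into differentiation and is needed for it, and Myf6 acts in early myogenesis and again in mature fibres, where it is the most abundant of the family. Id proteins block them by binding the E proteins in their place.

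In the GENCODE annotation of GRCm38, the assembly named mm10 in the submitters' processing notes, each of the 4 genes has 3 exons. Myod1 lies on chromosome 7 (plus strand, 46376474 to 46379099) and Myog on chromosome 1 (plus strand, 134289989 to 134292548). Myf5 (chromosome 10, minus strand, 107482908 to 107486134) and Myf6 (minus strand, 107492853 to 107494737) are neighbours, separated by 6718 bases. RefSeq promoter sequence (GRCm38.p6) was held for 2 of the 4 members, Myf5 and Myog, which each differed between the genotypes on 3 of 4 days. The 250 bases before the RefSeq start site are shown 5′ to 3′ on the gene's strand. For Myf5 that start is the GENCODE one, whereas for Myog it lies downstream of the GENCODE start given above, so the last bases of the Myog window are inside the GENCODE gene. Capitals mark the E-box CANNTG (its own reverse complement in pattern) and the Runx core TGTGGT (searched on both strands, with no overlap between the patterns):
Myog, chr1:134289754-134290003, plus strand: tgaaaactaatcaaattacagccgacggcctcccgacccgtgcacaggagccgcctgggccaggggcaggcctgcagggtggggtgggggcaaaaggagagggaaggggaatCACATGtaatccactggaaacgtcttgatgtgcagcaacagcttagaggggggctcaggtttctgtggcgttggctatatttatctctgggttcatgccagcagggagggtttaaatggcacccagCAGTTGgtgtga
Myf5, chr10:107486135-107486384, minus strand: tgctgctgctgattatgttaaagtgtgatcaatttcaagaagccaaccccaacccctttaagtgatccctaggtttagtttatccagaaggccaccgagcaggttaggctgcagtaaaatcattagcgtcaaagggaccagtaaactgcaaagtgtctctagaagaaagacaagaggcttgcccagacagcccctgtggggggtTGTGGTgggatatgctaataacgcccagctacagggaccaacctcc
The Myog window held 2 E-boxes, CACATG at 138 to 133 and CAGTTG at 12 to 7 bases before the RefSeq start (the latter inside the GENCODE gene), and no TGTGGT. The Myf5 window held 1 TGTGGT, 46 to 41 bases before the RefSeq start, and no E-box. Among all 32851 RefSeq promoters of the same length, 66.2% held an E-box and 14% held TGTGGT on either strand, so both matches describe these windows only.

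Libraries held 22197606 to 23684077 estimated counts, and replicates of a group were distinct (chi-square per degree of freedom 3.19 to 64.9). Both highest distances involved KO day 1 replicate 2, so the day 1 counts below are also given without it. The next highest was between WT day 6 replicates 2 and 3 (29). The mRNA of the targeted gene went against the genotype label: Runx1 mean CPM (counts scaled to library size after TMM normalization) was 84.0, 102, 149 and 153 in WT on days 0, 1, 3 and 6 and 120, 131, 217 and 311 in the libraries labelled KO (log2 fold change 0.51, 0.35, 0.54 and 1.02; edgeR adjusted p = 0.000362, 0.00151, 1.09e-05 and 6.11e-10). Where in the gene the disruption lies is not given in the sources used here, so the gene total checks neither the protein nor the edit, and "KO" below means only that label. The 6 myoblast markers, led by Des, summed to 1153 to 1177 TPM in WT and 1527 to 1551 TPM in KO on day 0, 2259 to 2354 and 2102 to 2403 TPM on day 1, 2340 to 2486 and 2791 to 2953 TPM on day 3, and 2031 to 2440 and 2938 to 3070 TPM on day 6, so that KO was above WT without overlap on days 0, 3 and 6. Cdh15 was higher in KO on all 4 days (0.74, 0.45, 0.52 and 0.64; edgeR adjusted p = 0.000134, 0.00174, 0.000435 and 4.24e-05), and Des on days 0, 3 and 6 (0.68, 0.55 and 0.83; edgeR adjusted p = 2.05e-05, 1.77e-05 and 4.8e-08), its day 1 call (0.22, edgeR adjusted p = 0.0462) being lost in 26 of 34 alternative fits. Cd82 was lower on days 1 and 6 (-0.26 and -0.22, edgeR adjusted p = 0.0149 and 0.0367) and higher on day 3 (0.33, edgeR adjusted p = 0.00264). In all, 2 of the 6 were higher and 0 lower on day 0, 2 and 1 on day 1, 4 and 0 on day 3, and 4 and 1 on day 6, where 17.5%, 42.2%, 43.2% and 42.9% of all genes were called. The part of these markers in the results on the 4 factors was not tested. Des, Cdh15, Chrna1 and Itga7 are also on the list of early targets below, so the marker sum and that list are not independent. The 6 macrophage markers summed to 15.7 to 17.5 TPM on KO day 6 and 5.22 to 9.23 TPM on WT day 6, with Ptprc, Adgre1 and C1qa at 0 counts in all 3 KO day 6 libraries. Of the 3 that could be tested on day 6, Cd68 was higher in KO (1.68, edgeR adjusted p = 1.15e-05), Csf1r was lower (-2.04, edgeR adjusted p = 5.64e-05; also lower on days 1 and 3) and Itgam did not pass (0.77, edgeR adjusted p = 0.3). Endothelial markers summed to at most 0.65 TPM, adipocyte markers to at most 1.88 TPM and epithelial markers to 1.23 to 14.8 TPM. Krt14 led that list in every group except KO day 1, where Krt8 did (1.87 TPM), and Krt14 was lower in KO on all 4 days while Krt8 was higher on days 1 and 6 (3.18 and 4.92, edgeR adjusted p = 0.000136 and 0.00041). The Schwann and neural list, nearly all of it Tubb3, summed to 122 to 147 TPM on day 0. On day 6 it was 44.96 to 52.7 TPM in WT and 23.1 to 26.8 TPM in KO, and Tubb3 was higher in KO on day 1 (0.70, edgeR adjusted p = 3.08e-05) and lower on day 6 (-0.83, edgeR adjusted p = 5.34e-06).

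Myod1, which can convert fibroblasts to muscle, was already abundant in growth medium and was highest there in both genotypes. On WT day 0 it stood at 381 and 375 TPM, and in the libraries labelled KO at 430.0, 418 and 473 TPM. On day 1 the WT values were 259, 227 and 277 TPM and the KO values 238, 137 and 246 TPM. On day 3 they were 245, 231 and 214 TPM in WT and 317, 304 and 293 TPM in KO, and on day 6 169, 189 and 216 TPM in WT and 220.0, 210.2 and 211 TPM in KO. The KO libraries lay above every WT library on days 0 and 3, and in TPM the genotypes overlapped on days 1 and 6. On the CPM scale of the test, day 6 did not overlap (165 to 196 CPM in WT and 219 to 229 CPM in KO). On day 3 Myod1 was 1.47-fold higher in KO (log2 fold change 0.56, SE 0.15, edgeR adjusted p = 0.00368). In that comparison 43.2% of the 14187 genes tested passed an adjusted p of 0.05, so a call there is common. In bulk RNA a difference in level cannot be told apart from a difference in the share of cells that express a gene. The other days did not pass: the log2 fold change was 0.28 (SE 0.16, edgeR adjusted p = 0.282) on day 0, where 17.5% of genes were called, -0.25 (SE 0.15, edgeR adjusted p = 0.187) on day 1, where 42.2% were, and 0.29 (SE 0.15, edgeR adjusted p = 0.115) on day 6, where 42.9% were.

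Within WT, Myod1 fell by 0.71, 0.89 and 1.17 on the log2 scale from day 0 to days 1, 3 and 6 (SE 0.16 each; edgeR adjusted p = 0.000723, 5.48e-05 and 1.19e-06; 54.7%, 58.2% and 63.6% of genes called). After day 1 no further WT step passed in the fit of all groups (day 3 against day 1, -0.18, edgeR adjusted p = 0.431, 19.7% of genes called; day 6 against day 3, -0.28, edgeR adjusted p = 0.267, 9.79% called). The later of these steps was called without KO day 1 replicate 2 (-0.27, edgeR adjusted p = 0.0127) and with the GC offset (-0.30, edgeR adjusted p = 0.0362), and the earlier one in a fit of its own groups (-0.20, edgeR adjusted p = 0.0346). In KO the course was not monotonic. Myod1 fell by 1.23 on day 1 (SE 0.15, edgeR adjusted p = 2.7e-07, 52.3% of genes called), rose by 0.62 from day 1 to day 3 (SE 0.15, edgeR adjusted p = 0.00289, 26.7% called) and fell by 0.54 from day 3 to day 6 (SE 0.15, edgeR adjusted p = 0.00454, 41.3% called). Relative to day 0 it was changed by -0.61 on day 3 and -1.16 on day 6 (edgeR adjusted p = 0.001 and 2.74e-07, with 57.6% and 70% of genes called). The step up from day 1 to day 3 rests in part on the low day 1 replicate 2: without that library it was 0.35 (edgeR adjusted p = 0.00271), and in a fit restricted to the compared groups it was 0.60 (edgeR adjusted p = 0.0956).

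**Figure D1:**
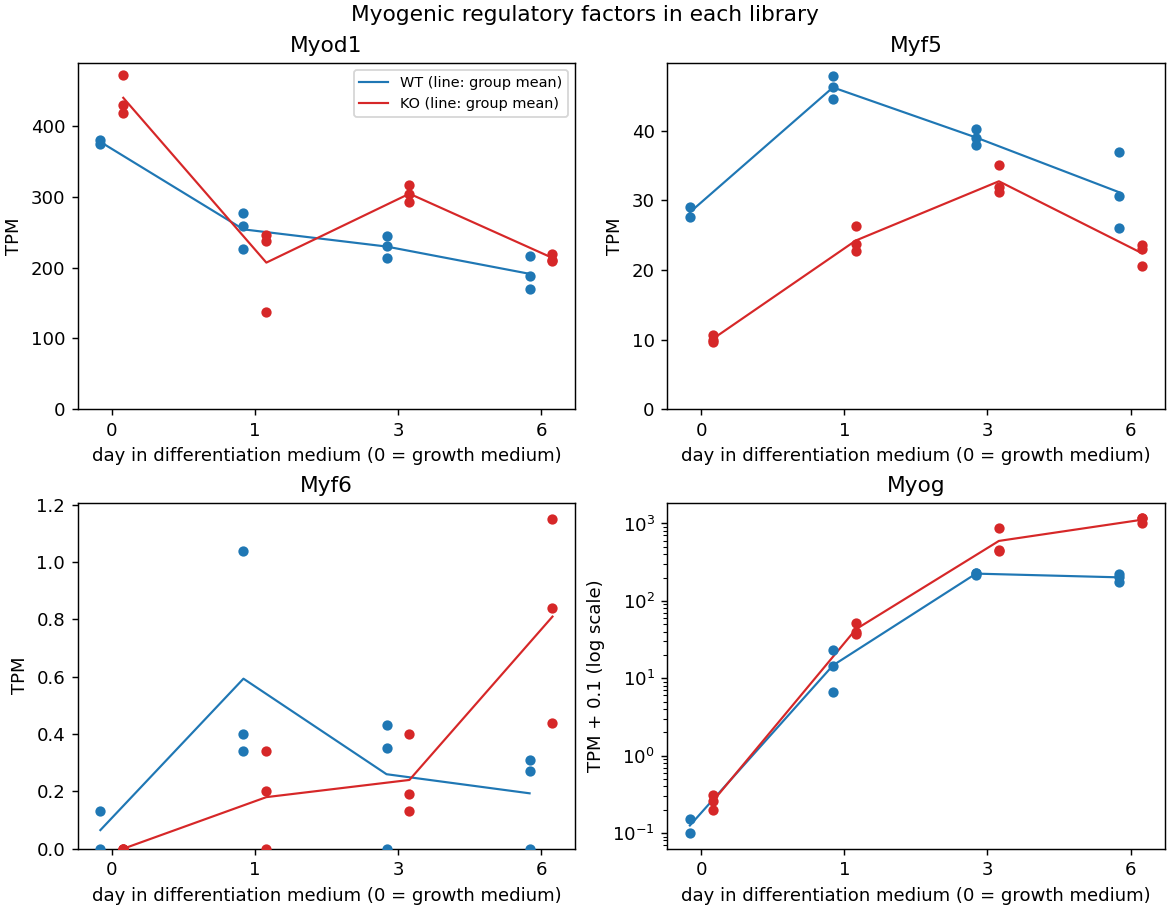
Level of each factor in every library by day, in TPM (Myog as TPM + 0.1 on a log axis), with WT in blue, the libraries labelled KO in red and lines through the group means. Myod1 is highest on day 0, Myf5 stays lower in red, Myog climbs in both and reaches 1118 TPM on KO day 6, and Myf6 stays near 1 TPM or under.

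Myf5, the first of the family to appear in the embryo, was far less abundant than Myod1 in every library and was lower in KO. In growth medium it stood at 29.0 and 27.5 TPM in WT and at 10.7, 9.93 and 9.63 TPM in KO. On day 1 the values were 46.4, 47.8 and 44.5 TPM in WT and 23.7, 26.3 and 22.7 TPM in KO. The groups were well apart on both days. On day 3 WT libraries held 38.0, 40.2 and 38.9 TPM and KO libraries 31.2, 35.1 and 31.9 TPM, and on day 6 30.6, 26.0 and 36.9 TPM in WT and 23.6, 23 and 20.6 TPM in KO. On the TPM scale every KO library was below every WT library of its day. Myf5 was 2.69-fold lower in KO on day 0 (log2 fold change -1.43, SE 0.085, edgeR adjusted p = 1.34e-11) and 1.86-fold lower on day 1 (-0.89, SE 0.073, edgeR adjusted p = 1.65e-09). By day 3 the difference had shrunk to -0.10 (SE 0.072, edgeR adjusted p = 0.261), and on day 6 it was -0.34 (SE 0.074, edgeR adjusted p = 0.000692). The day 3 difference passed on the TPM scale (-0.25 with limma on log2(TPM + 1), adjusted p = 0.0435) and with an offset for GC content (-0.19, edgeR adjusted p = 0.0301).

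Both genotypes raised Myf5 after serum withdrawal, by different amounts and with different peaks. In WT it rose by 0.57 on day 1 (SE 0.082, edgeR adjusted p = 2.74e-06), stood 0.29 above day 0 on day 3 (edgeR adjusted p = 0.0039) and was back near its starting level on day 6 (-0.05, SE 0.082, edgeR adjusted p = 0.584). The WT steps down from day 1 to day 3 (-0.28, edgeR adjusted p = 0.00671) and from day 3 to day 6 (-0.35, edgeR adjusted p = 0.0027) both passed, the first of them not with limma on log2(TPM + 1) (-0.24, adjusted p = 0.0945). In KO Myf5 rose by 1.11 on day 1, 1.62 on day 3 and 1.04 on day 6 relative to day 0 (SE 0.078 to 0.079; edgeR adjusted p = 6.95e-11, 2.77e-14 and 4.42e-11). It was still rising between day 1 and day 3 (0.51, edgeR adjusted p = 1.28e-05), the interval in which WT fell, and then dropped (-0.58, edgeR adjusted p = 1.09e-06).

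Myog showed the widest range of the 4. Growth-medium libraries were at the limit of detection, with 0 and 1 counts in WT and 4, 2 and 3 counts in KO, where 3 counts correspond to 0.126 to 0.14 CPM. On day 1 Myog stood at 14.2, 6.61 and 22.9 TPM in WT and 39.3, 37.3 and 51.9 TPM in KO. On day 3 WT libraries held 232, 213 and 229.6 TPM and KO libraries 879, 447 and 459 TPM. Replicate 1 of KO day 3 was the highest of its group, and every KO library exceeded every WT library on days 1, 3 and 6. On day 6 WT libraries stayed at 223, 177 and 204 TPM while KO libraries reached 1029.6, 1162 and 1164 TPM. Myog was 3.01-fold higher in KO on day 1 (log2 fold change 1.59, SE 0.28, edgeR adjusted p = 8.75e-05), 2.93-fold on day 3 (1.55, SE 0.25, edgeR adjusted p = 2.23e-05) and 6.09-fold on day 6 (2.61, SE 0.26, edgeR adjusted p = 1.78e-08). These 3 calls held in all 34 alternative fits, over which the log2 fold change ran from 1.23 to 2.11 on day 1, 1.17 to 1.73 on day 3 and 2.47 to 2.67 on day 6. On day 0 the group sums were 9 counts in KO and 1 in WT, a ratio of 6.13 with an exact 95% interval from 0.85 to 269 that covers counting error only, so a difference was not detectable at this depth. On KO day 6 the macrophage marker Cd68 was higher along with Myog and Csf1r of the same list was lower, as given above; Ptprc, Adgre1 and C1qa were at 0 counts there. The myoblast marker sum was also higher in KO on days 3 and 6.

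The induction of Myog over its growth-medium level can be given only as a ratio of summed counts with wide intervals, because so few day 0 counts were seen. In WT the ratio was 497 on day 1 (95% interval 88.9 to 19600), 7450 on day 3 (1340 to 294000) and 6610 on day 6 (1190 to 261000), all from 1 count on day 0. In KO it was 243 on day 1 (128 to 532), 3560 on day 3 (1870 to 7780) and 6570 on day 6 (3460 to 14400), from 9 counts. The intervals of the genotypes overlapped on each day. After day 1 the steps were well determined. WT rose 15.0-fold from day 1 to day 3 (log2 fold change 3.91, SE 0.29, edgeR adjusted p = 6.24e-10) and then did not pass the test from day 3 to day 6 (-0.17, SE 0.25, edgeR adjusted p = 0.746). KO rose 14.6-fold from day 1 to day 3 (3.87, SE 0.28, edgeR adjusted p = 1.51e-10) and a further 1.84-fold to day 6 (0.88, SE 0.24, edgeR adjusted p = 0.00535).

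Myf6 was at the edge of detection throughout. Its counts were 2 and 0 on WT day 0, 15, 5 and 6 on day 1, 6, 0 and 5 on day 3 and 0, 4 and 4 on day 6. In the libraries labelled KO they were 0, 0 and 0 on day 0, 3, 5 and 0 on day 1, 6, 2 and 3 on day 3 and 12, 18 and 7 on day 6. No library exceeded 1.15 TPM. Because the gene passed the filter only through libraries of WT day 1 and KO day 6, no test of it is read here, and its levels are a description. The summed counts on WT day 1 and WT day 0 were 26 and 2, a ratio of 8.17 (95% interval 2.05 to 71). KO day 6 was at least 3.87-fold higher than KO day 0, taking 3 counts per library as the level that a count of 0 allows. On day 6 the sums were 37 in KO and 8 in WT, a ratio of 4.68 (95% interval 2.14 to 11.6). On day 1 the order was the opposite, 26 counts in WT and 8 in KO, a ratio of 3.15 in favour of WT (95% interval 1.39 to 8.05). WT day 1 replicate 1 held 15 of these 26 counts, and the fitted log2 difference went from -1.62 to -0.98 without it and to -2.38 without KO day 1 replicate 2. These intervals cover counting error only. Each involves WT day 1 or KO day 6, the groups through which Myf6 passed the filter, so none is read as a test.

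**Figure D2:**
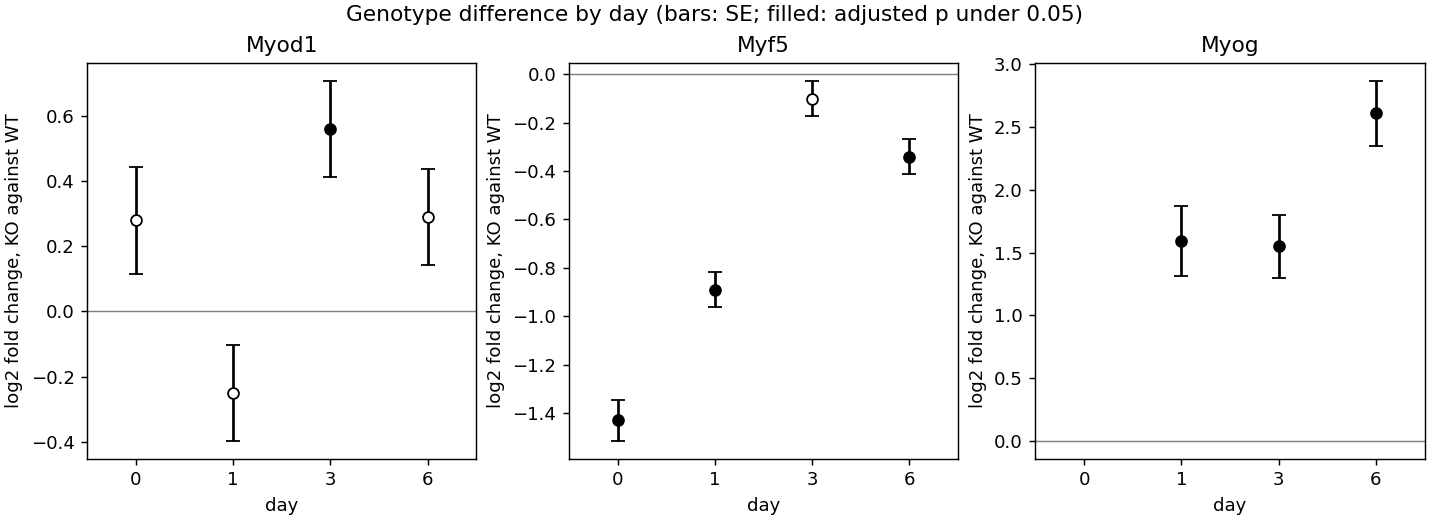
Log2 fold change of KO against WT on each day for Myod1, Myf5 and Myog, with bars for the SE and filled points where the edgeR adjusted p was under 0.05; Myog on day 0 is not drawn because no library exceeded 4 counts. Myf5 moves from -1.43 towards 0, Myog reaches 2.61 on day 6, and Myod1 passes on day 3 alone.

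Ordered by the first day on which a factor was higher than in growth medium, Myod1 was not called higher in either genotype, and Myf5 and Myog were both higher from day 1 in both. With a log2 fold change of at least 1 also required, Myf5 kept its day 1 onset in KO and had no onset in WT, while Myog kept day 1 in both. The highest group mean of Myod1 fell on day 0 in both genotypes. That of Myf5 fell on day 1 in WT (46.2 TPM) and day 3 in KO (32.8 TPM), and that of Myog on day 3 in WT (225 TPM) and day 6 in KO (1118 TPM). Ranking the 8 groups by mean Myog, the order was KO day 6, KO day 3, WT day 3, WT day 6, KO day 1, WT day 1, KO day 0 and WT day 0, in which WT days 3 and 6 overlapped and no other neighbours did. KO day 0 and WT day 0 were at the limit of detection, so their order is not read. For Myod1 the top 4 groups, KO day 0 (440 TPM), WT day 0 (378 TPM), KO day 3 (305 TPM) and WT day 1 (254 TPM), had no overlap between neighbours, whereas from WT day 1 down to WT day 6 (191 TPM) each group overlapped the next. For Myf5 the ends of the order were WT day 1 (46.2 ± 1.65 TPM, SD, n = 3) and KO day 0 (10.1 ± 0.56 TPM, SD, n = 3). KO day 3 overlapped WT day 6, WT day 6 overlapped WT day 0, and KO day 1 overlapped KO day 6. All 8 Myf6 groups overlapped the next in order.

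The balance between the factors shifted from Myod1 to Myog in both genotypes, and further in KO. Because TPM is scaled for length, the levels of different members can be set against each other, and the ratios are given as descriptions. Myod1 made up 93.0% ± 0.18 (SD, n = 2) of the summed TPM of the 4 on WT day 0 and 97.7% ± 0.23 (SD, n = 3) on KO day 0. By day 6 its share was 45.1% ± 4.42 in WT and 15.8% ± 1.26 in KO (SD, n = 3 each). The Myog share reached 45.5% ± 1.82 on day 3 and 47.5% ± 4.51 on day 6 in WT, against 62.4% ± 8.07 and 82.5% ± 1.43 in KO (SD, n = 3 each). Myf5 contributed most on day 1, 14.8% ± 2.04 in WT and 9.33% ± 3.24 in KO. The summed level dipped on day 1 and then diverged. It was 406, 316, 494 and 424 TPM in WT and 450.5, 274.5, 933 and 1355 TPM in KO on days 0, 1, 3 and 6.

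**Figure D3:**
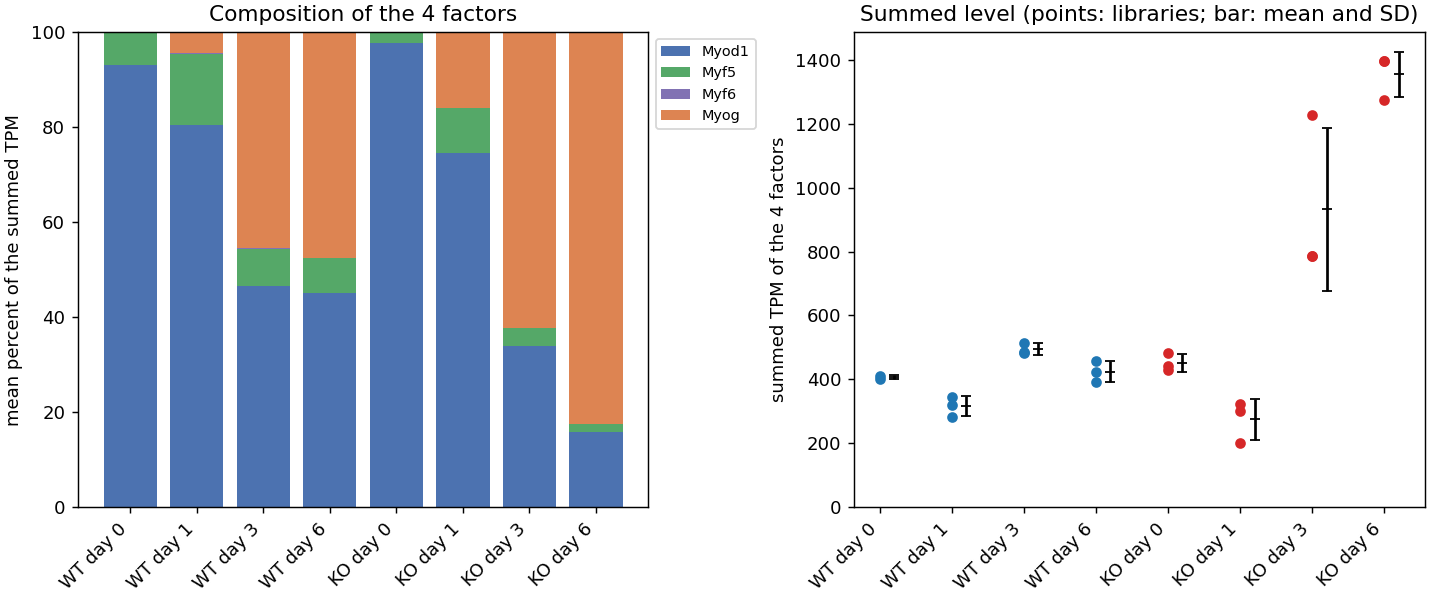
Left, mean percent of the summed TPM of the 4 factors contributed by each in the 8 groups; right, the summed TPM in every library with the group mean and SD. Myog takes 47.5% on WT day 6 and 82.5% on KO day 6, and the summed level is highest on KO day 6 (1355 TPM).

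The ratio of Myod1 to Myf5 was 13.1 and 13.6 in the WT libraries of day 0 and 40.1, 42.1 and 49.1 in the KO libraries. On day 1 it was 5.59, 4.75 and 6.21 in WT and 10.0, 5.23 and 10.9 in KO, and replicate 2 of KO was the one within the WT range. On days 3 and 6 the KO libraries (8.65 to 10.2 and 9.14 to 10.2) lay above the WT libraries (5.50 to 6.45 and 5.54 to 7.26). The ratio thus stayed nearly level after day 1 within each genotype. That of Myog to Myod1 went from 0.029 to 0.083 on WT day 1 to 0.92 to 1.07 on day 3 and 0.94 to 1.32 on day 6. In KO it went from 0.17 to 0.27 on day 1 to 1.47 to 2.78 on day 3 and 4.68 to 5.53 on day 6, with no overlap between the genotypes on these 3 days. Myog was thus near the level of Myod1 from day 3 in WT and exceeded it in every KO library of days 3 and 6.

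Whether the time course differed between the genotypes was tested with the interaction term of the same fit. For Myf5 the change from day 0 was more positive in KO on day 1 (0.53, SE 0.11, edgeR adjusted p = 0.0075, where 3.95% of genes passed), on day 3 (1.32, SE 0.11, edgeR adjusted p = 3.89e-08, where 10.7% passed) and on day 6 (1.09, SE 0.11, edgeR adjusted p = 3.27e-07, where 13% passed). Its step from day 1 to day 3 also differed (0.79, SE 0.10, edgeR adjusted p = 2.16e-05, where 6.05% passed), and its step from day 3 to day 6 did not pass (-0.23, edgeR adjusted p = 0.148, where 12.4% passed). The number of genes called in the day 1 term ran from 148 to 919 with 1 library left out, against 560. The Myf5 day 1 term was the least stable of the 4: it was 0.32 with the GC offset (edgeR adjusted p = 0.118) and 0.51 or 0.53 without WT day 0 replicate 1 or 2 (edgeR adjusted p = 0.0581 and 0.0513). For Myod1 the step from day 1 to day 3 differed by 0.80 (SE 0.21, edgeR adjusted p = 0.0196). Without KO day 1 replicate 2 this term was 0.54 (edgeR adjusted p = 0.00263), and it missed the threshold without WT day 1 replicate 3 (0.72, edgeR adjusted p = 0.0706) or WT day 3 replicate 3 (0.76, edgeR adjusted p = 0.0573). The Myod1 changes from day 0 did not pass on day 1 (-0.53, edgeR adjusted p = 0.2), day 3 (0.28, edgeR adjusted p = 0.505) or day 6 (0.01, edgeR adjusted p = 0.998).

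For Myog the steps after day 1 could be compared, since the day 0 counts could not bear the terms against growth medium. Its rise from day 1 to day 3 did not differ by the test (-0.04, SE 0.37, edgeR adjusted p = 0.971). From day 3 to day 6 the change was more positive in KO by 1.06 (SE 0.35, edgeR adjusted p = 0.047). This call is close to the threshold: removing single libraries ended it in 15 of 23 cases, with the term between 0.88 (without KO day 3 replicate 2) and 1.44, and so did DESeq2 (1.10, adjusted p = 0.133).

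Replicate 2 of KO day 1 was examined for Myod1 because its Myod1 level, 137 TPM, was well under the 238 and 246 TPM of the other KO day 1 libraries. Across 11083 genes its deviation from those libraries ran with the GC content of the transcript (r = -0.74 across genes, which are not independent replicates). Myod1 is GC-rich at 58.9% and was 0.92 lower on the log2 scale (-0.92) than the mean of replicates 1 and 3, while the 622 genes within 1 percentage point of its GC content had a median deviation of -0.52, and 4.18% of them were lower than Myod1. Myog (54.8% GC) deviated by -0.39 where its GC neighbours had a median of -0.28. Myf5 (41.6% GC) deviated by 0.07 where its neighbours had a median of 0.41. Thus Myod1 and Myf5 both sat below the median of genes of their own GC content, and Myog near it. Without replicate 1 instead, Myod1 on day 1 was lower in KO by the test (-0.39, edgeR adjusted p = 0.0463). Without replicate 2, Myod1 on day 1 differed between genotypes by -0.02 (edgeR adjusted p = 0.876). In the same fit Myod1 was higher in KO on day 0 (0.30, edgeR adjusted p = 0.00817) and on day 6 (0.27, edgeR adjusted p = 0.00437). With a GC offset in place of leaving it out, the Myod1 values were 0.33 on day 0 (edgeR adjusted p = 0.0265), -0.08 on day 1 (edgeR adjusted p = 0.545) and 0.25 on day 6 (edgeR adjusted p = 0.0302). The Myf5 and Myog calls on day 1 held without replicate 2. Outside KO day 1, the widest GC trends were those of WT day 6 replicates 2 and 3, in opposite directions (r = 0.34 and -0.3 across genes). Myf5 stood at 26.0 and 36.9 TPM in these WT day 6 libraries.

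**Figure D4:**
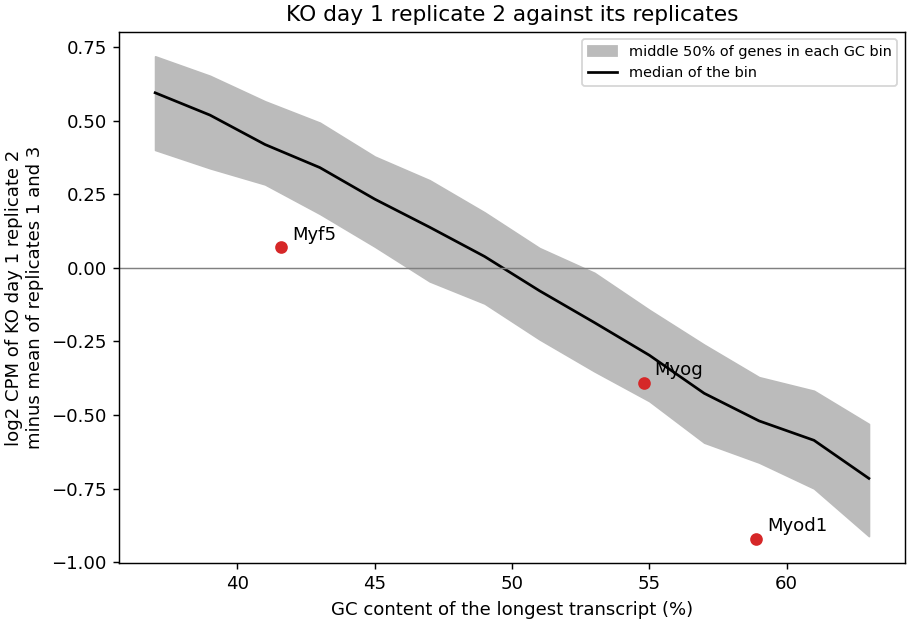
Log2 CPM of KO day 1 replicate 2 minus the mean of its 2 fellow replicates, against transcript GC content, with the median and the middle 50% of genes in each GC bin and 3 of the factors as red points (Myf6 is left out for its low counts). Myod1 lies at -0.92, under the shaded band, Myf5 at 0.07, also under it, and Myog at -0.39, inside it.

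The genes whose levels ran most like each factor over the 23 libraries were found by Pearson correlation of log2(TPM + 1) among 9669 genes with a mean of at least 5 TPM. The points share cell line and time course, so the values describe the pattern and carry no test. Closest to Myog were the fast skeletal troponins Tnnt3 (r = 0.992) and Tnni2 (0.99) and the fast myosin light chain Mylpf (0.984). Tnnt3 had its highest mean on KO day 6 (1083 TPM) and stood at 212.5 TPM on WT day 3. Its lowest means were in growth medium (0.29 TPM in WT and 1.15 TPM in KO). Like Myog, Tnnt3 was thus highest on KO day 6 and lowest on day 0. Closest to Myf5 were Mgp (0.934), a matrix Gla protein, Ntn1 (0.93), a netrin, and the receptor Fgfr4 (0.919). Mgp averaged 38.1 TPM on WT day 0 and 2.82 TPM on KO day 0, and 427 and 55.9 TPM on day 1. Closest to Myod1 were the mitochondrial carrier Slc25a10 (0.933), the prohibitin Phb2 (0.928) and Ino80e (0.922), a subunit of a chromatin remodeller. Over the 8 group means the closest 3 were Tsen54, Atpaf2 and Phb2 for Myod1, Vps9d1, Fgfr4 and Tbc1d7 for Myf5, and Tnni2, Tnnt3 and Tspan3 for Myog, so Phb2, Fgfr4, Tnni2 and Tnnt3 stood in both rankings. Myf6 was too sparse for such a ranking to be read.

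The partners and antagonists of the factors were compared next, from lists that were chosen with earlier results of these data known. The E proteins Tcf3 (E12 and E47), Tcf4 and Tcf12 (HEB), the dimer partners, differed by less than 0.5 on the log2 scale. Tcf4 was lower in KO on day 0 (-0.33, edgeR adjusted p = 0.0155), day 3 (-0.30, edgeR adjusted p = 0.00415) and day 6 (-0.34, edgeR adjusted p = 0.00157). The day 0 call was lost with limma on log2(TPM + 1) (-0.36, adjusted p = 0.0574) and without KO day 0 replicate 3 (-0.24), WT day 0 replicate 1 (-0.27) or WT day 0 replicate 2 (-0.36), with edgeR adjusted p up to 0.207. Tcf12 was higher on day 1 (0.27, edgeR adjusted p = 0.00589), day 3 (0.33, edgeR adjusted p = 0.00113) and day 6 (0.35, edgeR adjusted p = 0.000659), calls that limma on log2(TPM + 1) did not make (0.23, 0.19 and 0.23; adjusted p = 0.105, 0.178 and 0.103). The day 1 call of Tcf12 was lost in 5 of 34 alternative fits, which also include the GC offset (0.15, edgeR adjusted p = 0.0521) and a fit of the compared groups alone (0.25, edgeR adjusted p = 0.0865). Tcf3 was higher on day 3 (0.42, edgeR adjusted p = 0.0102), also lost on that scale (0.27, adjusted p = 0.106). Of the 3, 1 was higher and 0 lower on day 1, and 2 and 1 without KO day 1 replicate 2, where 42.2% and 38.6% of all genes were called. Without that library Tcf3 on day 1 went from 0.26 (edgeR adjusted p = 0.103) to 0.47 (edgeR adjusted p = 3.12e-06) and Tcf4 from -0.13 (edgeR adjusted p = 0.211) to -0.21 (edgeR adjusted p = 0.045), and Tcf3 was called on day 0 (0.29, edgeR adjusted p = 0.00141). Tcf3 held 102 to 166 mean TPM in the 8 groups, below Myod1 in each.

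Of the 14 antagonists that could be tested, 4 were higher and 4 lower in KO on day 0, 4 and 5 on day 1, 5 and 4 on day 3, and 6 and 5 on day 6, with median log2 fold changes of 0.09, -0.11, 0.03 and 0.10. The day 1 count was 5 and 6 without KO day 1 replicate 2 (38.6% of all genes called). All genes tested had medians of 0.00, 0.03, 0.04 and 0.00, and the shares called higher and lower were 7.36% and 10.1%, 22.9% and 19.2%, 24% and 19.2%, and 22% and 20.8%. That split depends on the scaling: of the genes called on day 3, 55.5% were higher in KO, and 34.3% with limma on log2(TPM + 1). Id1 and Id3, which sequester E proteins, did not pass on day 0 (0.07 and 0.17) or day 1 (0.14 and 0.34) and were higher in KO on day 3 (1.62 and 1.31, edgeR adjusted p = 2.91e-08 and 3.2e-07) and day 6 (2.06 and 1.5, edgeR adjusted p = 1.66e-10 and 5.51e-08). Id3 on day 1 was called in 5 of 34 alternative fits, among them those without KO day 1 replicate 2 (0.46, edgeR adjusted p = 0.0159) or WT day 1 replicate 3 (0.50, edgeR adjusted p = 0.0143). Id2, of the same family, had another course: it was higher in KO on day 0 (0.48, edgeR adjusted p = 0.000286), did not pass on day 1 (-0.18, edgeR adjusted p = 0.0809) or day 3 (-0.03, edgeR adjusted p = 0.825) and was lower on day 6 (-0.29, edgeR adjusted p = 0.00658). Its day 1 difference passed in 6 of 34 alternative fits, one of them without KO day 1 replicate 2 (-0.26, edgeR adjusted p = 0.0201). Mean Id2 on day 6 was 35.7 TPM in WT and 26.7 TPM in KO. Mean Id1 went from 163 TPM on WT day 0 to 15.1 TPM on day 1 and 11.6 TPM on day 6, and in KO from 164 TPM to 16.2 TPM and 44.4 TPM. Myog, Id1 and Id3 were thus higher in KO on days 3 and 6, and Id2 was not.

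The remaining antagonists moved in both directions. Msc (musculin), a bHLH repressor that competes for E-boxes, was higher in KO on all 4 days (1.39, 2.20, 2.11 and 0.94; edgeR adjusted p = 0.000198, 1.76e-08, 2.66e-09 and 0.000512). Heyl, a Notch effector, was higher on all 4 as well (2.00, 1.84, 2.09 and 1.36; edgeR adjusted p = 0.00162, 6.31e-08, 2.61e-09 and 2.05e-06), though on day 0 not with limma on log2(TPM + 1) (0.52, adjusted p = 0.066). Twist2 was lower on all 4 days (-0.63, -0.66, -0.63 and -0.63; edgeR adjusted p = 0.00239, 0.000316, 0.000555 and 0.000494). Snai1, a repressor that occupies E-boxes, was lower on days 1, 3 and 6 (-0.80, -0.82 and -0.56; edgeR adjusted p = 0.000657, 0.000413 and 0.00959). Mdfi, an inhibitor that holds the factors outside the nucleus, had 0 counts in all 6 KO libraries of days 0 and 1. WT was therefore at least 2.43-fold higher in Mdfi on day 0 and at least 5.71-fold higher on day 1. On day 3 the WT to KO ratio of summed Mdfi counts was 28 (58 against 2 counts, 95% interval 7.42 to 237), and on day 6 it was 55.4 (56 against 1, 95% interval 9.54 to 2230). Its WT level was low, 0.395 to 1.11 mean TPM.

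**Figure D5:**
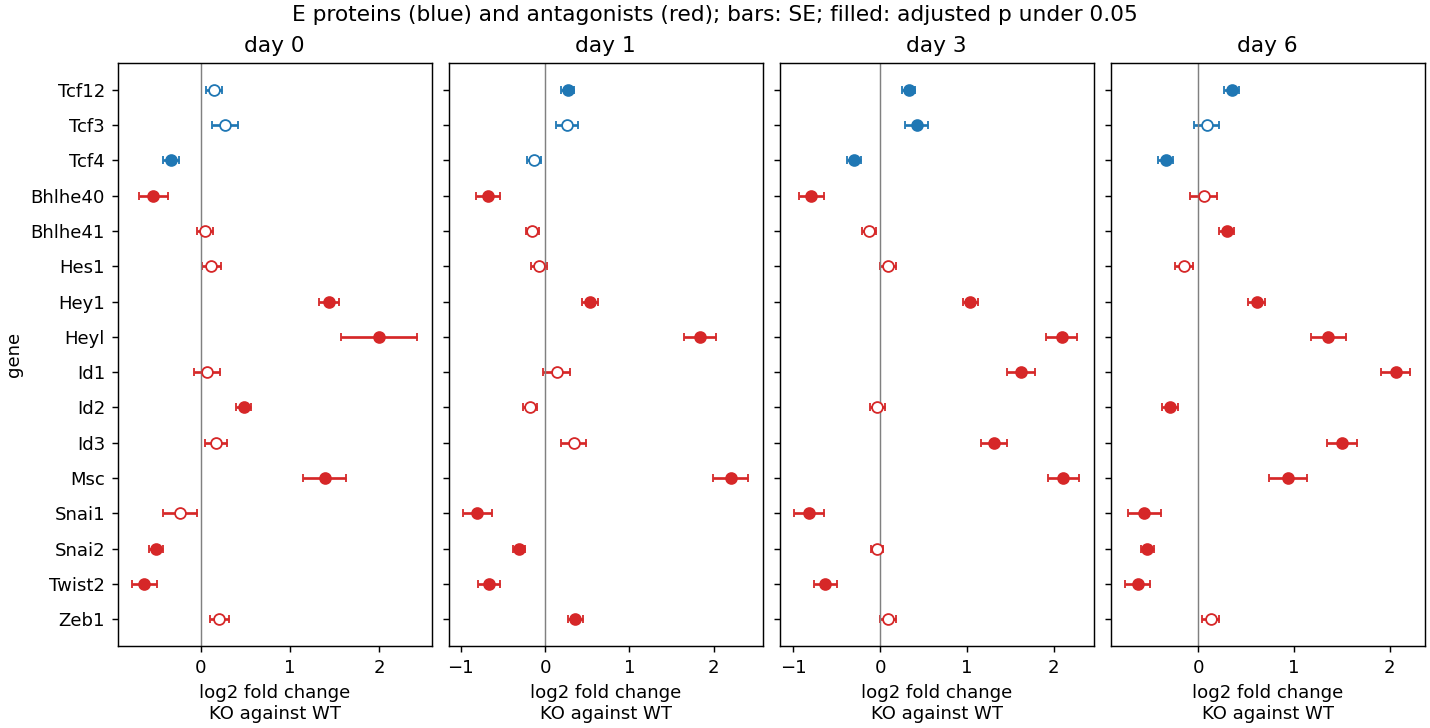
Log2 fold change of KO against WT on each day for the 3 E proteins (blue) and 13 tested antagonists (red), with bars for the SE and filled points where the edgeR adjusted p was under 0.05; Mdfi is left out because KO libraries were at 0 counts on days 0 and 1, and each panel has its own scale. Id1 and Id3 have open points on days 0 and 1 (0.14 and 0.34 on day 1) and are at 1.62 and 1.31 on day 3, while Msc and Heyl lie above 0 in all 4 panels.

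Of 16 tested upstream regulators, 2 were higher and 0 lower in KO on day 0, 6 and 3 on day 1, 8 and 1 on day 3, and 10 and 4 on day 6, with medians of 0.08, 0.19, 0.19 and 0.40. Among all genes, 7.36% were called higher and 10.1% lower on day 0, 22.9% and 19.2% on day 1, 24% and 19.2% on day 3, and 22% and 20.8% on day 6. Without KO day 1 replicate 2 the day 1 count was 5 and 1, in a comparison where 38.6% of genes were called. Lbx1, a homeobox factor of migrating muscle precursors, was higher in KO on day 1 (1.93, edgeR adjusted p = 1.18e-06) and day 6 (2.17, edgeR adjusted p = 8.84e-08). Tead4, a TEAD factor of differentiating myoblasts, was higher on day 6 (2.19, edgeR adjusted p = 1.88e-10). Mef2c, a MADS-box partner of Myog, averaged 1.97 TPM on KO day 6 and 0.153 TPM on WT day 6 (3.81, edgeR adjusted p = 1.07e-07). Pax7, the satellite cell factor that acts above Myf5, was lower in KO on day 1 (-0.52, edgeR adjusted p = 0.000767) and day 6 (-0.73, edgeR adjusted p = 2.35e-05). Six5 was lower on day 1 (-0.44, edgeR adjusted p = 0.0181) and day 6 (-0.46, edgeR adjusted p = 0.0108), the first lost without KO day 1 replicate 2 or WT day 1 replicate 3, with the compared groups alone and with the GC offset (-0.22, edgeR adjusted p = 0.0574), and the second without WT day 6 replicate 2 (edgeR adjusted p = 0.0513). Pitx3 was higher on day 1 (0.86, edgeR adjusted p = 0.0129), a call lost without KO day 1 replicate 1 or 3 or WT day 1 replicate 2 (0.65 to 1.19 over single omissions), on both TPM scales (0.65 and 0.69 with limma) and with the compared groups alone (0.84, edgeR adjusted p = 0.0928). On days 3 and 6 Pitx3 was higher as well (1.97 and 1.63, edgeR adjusted p = 5.41e-06 and 7.54e-05).

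Early target genes of the factors were called mostly on days 3 and 6. Among 20, 3 were higher and 2 lower in KO on day 0, 4 and 5 on day 1, 11 and 2 on day 3, and 18 and 2 on day 6, with medians of 0.09, -0.09, 0.42 and 0.87. Of all genes 17.5% were called on day 0, 42.2% on day 1, 43.2% on day 3 and 42.9% on day 6, so the 9 called on day 1 are near the background. Leaving out KO day 1 replicate 2 gave 4 and 6 on day 1, with 38.6% of all genes called. Des, Cdh15, Chrna1 and Itga7 of this list are also myoblast markers, and Mef2c is also an upstream regulator. Their calls are thus counted in both lists. Myl4, an embryonic myosin light chain, was 14.0-fold higher in KO on day 6 (3.80, SE 0.14, edgeR adjusted p = 4.8e-16), and Mybph, a myosin-binding protein, was higher on day 1 (2.90, edgeR adjusted p = 5.45e-07). On day 1 Myl4 was higher by 0.86 (edgeR adjusted p = 0.0162), a call lost without KO day 1 replicate 2 or WT day 1 replicate 1. The pair that stayed lower in KO on all 4 days was Fgfr4 (-2.33, -2.21, -0.94 and -1.40; edgeR adjusted p = 2.84e-09, 1.13e-11, 3.14e-06 and 1.28e-08) and the cell cycle inhibitor Cdkn1c (-2.86 on day 1 and -1.75 on day 6; edgeR adjusted p = 2.08e-06 and 0.000206). Fgfr4 thus had the same sign as Myf5 on each day, as did Cdkn1c here and Twist2 above. Fgfr4 was also among the 3 genes most like Myf5, a ranking from the same libraries that adds no separate support.

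Late targets, mostly sarcomere and metabolic genes of the myotube, were mostly higher in KO on days 1, 3 and 6. Of 20, 2 were higher and 0 lower on day 0, 14 and 1 on day 1, 19 and 0 on day 3, and 18 and 0 on day 6, with medians of 0.76, 1.62, 1.46 and 2.50. Among all genes 7.36%, 22.9%, 24% and 22% were called higher and 10.1%, 19.2%, 19.2% and 20.8% lower on days 0, 1, 3 and 6. On day 1, 5 did not pass, of which Myh8 (-0.71) and Neb (-0.30) had negative values. The day 1 count was 10 and 1 without KO day 1 replicate 2, with 38.6% of all genes called. Actc1, the cardiac actin of early myotubes, was 18.1-fold higher on day 6 (4.17, edgeR adjusted p = 6.87e-12), and Mb (myoglobin) was 21.2-fold higher (4.41, edgeR adjusted p = 3.51e-13). Myl1, a fast myosin light chain, was higher on day 1 (3.12, edgeR adjusted p = 7.08e-07). Tnnt3 was higher on day 1 by 0.61 (edgeR adjusted p = 0.0128), a call lost without KO day 1 replicate 2 or WT day 1 replicate 2 and with the compared groups alone. The smallest day 6 differences among the called late targets were those of the myosin heavy chains Myh1 (0.95, edgeR adjusted p = 7.59e-05) and Myh8 (1.40, edgeR adjusted p = 0.0084; lost with limma on log2(TPM + 0.1)). Atp2a1, the sarcoplasmic calcium pump, was the 1 late target lower in KO on day 1 (-0.58, edgeR adjusted p = 0.0103), lost without WT day 1 replicate 3 (-0.42, edgeR adjusted p = 0.0853) and with the GC offset, alone (-0.45, edgeR adjusted p = 0.0536) or with the replicate block. Atp2a1 was higher in KO on days 3 and 6 (1.79 and 2.57, edgeR adjusted p = 8.31e-10 and 1.25e-12). The day 1 call of Myh4 rests on KO day 1 replicate 2 alone, since the value was 0 without it.

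Among 20 chromatin cofactors, 1 was higher and 2 lower in KO on day 0, 7 and 3 on day 1, 8 and 1 on day 3, and 6 and 2 on day 6, with medians of 0.11, 0.01, 0.12 and 0.11, and 5 and 3 were called on day 1 without KO day 1 replicate 2. These counts are near the shares of all genes called (17.5%, 42.2%, 43.2% and 42.9% on the 4 days) and say nothing of the list as a whole. Hdac9, a deacetylase that binds Mef2 factors, was lower in KO on day 1 (-1.90, edgeR adjusted p = 5.96e-07) and day 6 (-1.25, edgeR adjusted p = 4.86e-05). Mamstr, a Mef2 coactivator, was higher on days 0, 3 and 6 (2.18, 1.86 and 2.96; edgeR adjusted p = 0.00239, 2.93e-08 and 8.98e-12). Ezh2, the Polycomb methyltransferase, was higher on day 1 (0.86, edgeR adjusted p = 7.39e-07), and Sirt1 on day 1 and day 6 (0.77 and 0.68, edgeR adjusted p = 1.48e-05 and 8.68e-05). Hdac1, which binds Myod1 in myoblasts, was higher in KO on days 1 and 3 (0.17 and 0.22, edgeR adjusted p = 0.0289 and 0.00725) and lower on day 6 (-0.32, edgeR adjusted p = 0.000274). Hdac4 was lower on days 0 and 1 (-0.36 and -0.34, edgeR adjusted p = 0.0384 and 0.012) and higher on day 6 (0.30, edgeR adjusted p = 0.0205). Its day 1 call was lost without KO day 1 replicate 2 or WT day 1 replicate 1 and with the compared groups alone (-0.36, edgeR adjusted p = 0.0653).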

How the data were processed

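Poly(A) RNA of 23 libraries was analysed. The authors deposited estimated counts per gene, as whole numbers, and TPM; the submitters' processing notes name Bowtie2, RSEM and mm10 without roles or versions. Any use of strand is not given in the sources used here. Columns were matched to samples by title. Estimated counts (rounding changed no value) were fitted with edgeR 4.0.16 in R 4.3.3: filterByExpr (minimum count 10, minimum total 15), TMM scaling, 1 mean per group, quasi-likelihood F-tests in 19 contrasts, and Benjamini-Hochberg adjustment over the 14187 genes of each contrast. An adjusted p under 0.05 is a call. Ratios and shares use deposited TPM, with a pseudocount of 0.1 TPM where logs were taken. Intervals of count ratios are exact conditional binomial (95%) and cover counting error only. GC content comes from GENCODE transcripts (93.5% of tested genes). Simulated counts with 200 changed genes in KO day 1, as many raised as lowered, and no GC trend served to check the code. They do not check it for the larger share of genes called here or for the GC trend of KO day 1 replicate 2.

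The members and all gene lists were chosen with earlier results of these data known. Named genes are the members, Runx1, the 3 E proteins, from each other list the 2 called genes with the highest and the 2 with the lowest log2 fold change on days 1 and 6, and the 3 genes most like each member; other genes, such as markers, were named after their values were seen. Alternatives were RLE scaling, library size only, DESeq2 1.42.0, an unfiltered table, a minimum mean count (50), limma 3.58.1 on log2(TPM + 1) and log2(TPM + 0.1), only the groups compared, a GC offset, a replicate block, and each library left out.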

Additional observations from a re-analysis of the deposited data

Results flagged for a closer look

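For 3 of the factors a change over time differed between the genotypes by the interaction test, in 6 pairs of factor and contrast. Each is given as log2 change in the libraries labelled KO minus that in WT, with the share of all genes called in that contrast. Myf5 differed from day 0 to day 1 (0.53, edgeR adjusted p = 0.0075, 3.95% of genes called) and to day 3 (1.32, edgeR adjusted p = 3.89e-08, 10.7% called). It also differed from day 0 to day 6 (1.09, edgeR adjusted p = 3.27e-07, 13% called) and from day 1 to day 3 (0.79, edgeR adjusted p = 2.16e-05, 6.05% called). Its KO level started lower and rose further, from 10.1 to 32.8 mean TPM by day 3 against 28.3 to 39.0 in WT. The day 1 term of Myf5 lost its call with the GC offset (0.32, edgeR adjusted p = 0.118), on both TPM scales and with only the groups compared. Myod1 differed from day 1 to day 3 (0.80, edgeR adjusted p = 0.0196, 6.05% called), the interval that includes the low KO day 1 replicate 2. This call was lost with only the groups compared and without WT day 1 replicate 3 or WT day 3 replicate 3. Myog differed from day 3 to day 6 (1.06, edgeR adjusted p = 0.047, 12.4% called), where its KO mean went from 595 to 1118 TPM and its WT mean from 225 to 201 TPM. The Myog call was lost in 15 of 23 single omissions, with DESeq2 and on both TPM scales.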

How the results depend on the processing

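Of the settings tried for the 4 factors, 1811 values kept direction and side of the threshold, 35 lost a call, 18 gained one and 34 changed sign, all of the last for values that were not called. The tally leaves out the genotype comparison of Myog on day 0 and the Myog interactions against day 0. For Myf6 it holds only the genotype comparisons on days 1, 3 and 6, and its lost calls include those of Myf6 on day 6, though no Myf6 test is read here. Where no cause is named, the cause was not tested. Myod1 gained calls on day 0 with the GC offset (0.33), the replicate block with GC offset (0.29) and only the groups compared (0.28), and on day 6 with no filter (0.29), the GC offset and its blocked form (0.25 each) and only the groups compared (0.28). With single libraries left out, Myod1 ran from 0.22 to 0.34 on day 0, -0.39 (without KO day 1 replicate 1, which gains a call, edgeR adjusted p = 0.0463) to -0.02 on day 1 and 0.20 to 0.34 on day 6. Its interaction on day 6, 0.01, became -0.07 with the GC offset, -0.04 with the block and GC offset, -0.05 on both TPM scales and 0 with only the groups compared, and ran from -0.11 to 0.07 over single omissions. Its interaction from day 1 to day 3 was 0.80 without a call in the groups compared alone, and ran from 0.54 to 0.95 over omissions. Myf5 gained its day 3 call with the GC offset, blocked or not (-0.19), and on both TPM scales (-0.25). The Myf5 change from day 0 to day 6 in WT was 0.03 by library size, 0.01 with a mean count of at least 50, 0.06 with the GC offset, blocked or not, and 0.12 or 0.13 from TPM, and ran from -0.06 to 0.01 over omissions. The Myf5 interaction on day 1 lost its call with the GC offset, blocked or not (0.32), on the TPM scales (0.50 and 0.55) and with only the groups compared (0.51), and ran from 0.46 to 0.57 over omissions. The fitted Myf6 difference on day 3, 0.05, was 0 by library size, -0.01 with the GC offset or log2(TPM + 1) and -0.02 with the block and GC offset, and ran from -0.56 to 0.58 over omissions; on day 6 it ran from 1.58 to 2.59. The Myog interaction from day 3 to day 6 lost its call on the TPM scales (1.14 and 1.15) and with DESeq2 (1.10), and ran from 0.88 to 1.44 over omissions; from day 1 to day 3 it ran from -0.55 to 0.28. Tcf3 on day 6 was -0.03 on both TPM scales, and Id2 on day 3 ran from -0.10 to 0 (without WT day 3 replicate 3) over omissions. With log2(TPM + 0.1) the median of all genes shifted to -0.11 on day 3 and -0.12 on day 6. The share of called genes that were higher went on day 0 from 42.1% to 29.5% by library size and 53.1% with the GC offset, and on day 6 from 51.4% to 34.7% with log2(TPM + 0.1). The genes called were 3607 on day 1 with only the groups compared, against 5981, and on day 0 ran from 1265 (without WT day 0 replicate 1; 1499 without replicate 2) to 3459 (without KO day 1 replicate 2) against 2479. Other counts that moved by over 1.5 times with a library left out were the interactions on day 1 (560; 148 to 919; either WT day 0 library, KO day 0 replicates 1 and 2, WT day 1 replicates 1 and 2, KO day 1 replicate 3), day 3 (1519; 829 to 2302) and day 6 (1839; 1184 to 2844; both either WT day 0 library or KO day 1 replicate 2), and from day 3 to 6 (1753; 1125 to 2837; KO day 1 replicate 2, KO day 3 replicate 3), and WT day 6 against day 3 (1389; 762 to 2271; KO day 1 replicate 2, WT day 3 replicates 1 and 2, WT day 6 replicate 1). Myh4 on day 1 ran from 0 to 7.42. Deviations from the group mean, compared between WT and KO libraries of the same day and replicate number, correlated at -0.24 to 0.053. Whether the cultures were paired cannot be told from these values. The replicate block alone changed no call of the 4 factors (Myod1 on day 3, 0.55; Myf5 on day 0, -1.42; Myog on day 6, 2.62); of the related genes named, Id3 gained a call on day 1 (0.35) and Des lost its day 1 call (0.22). Depth limits Myf6 in all groups and Myog on day 0.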
